A study of Mus musculus with 2 samples.

Results

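Astrocyte nuclei of the adult mouse hippocampus were described from 1 library made with Slide-tags, a method in which nuclei of a frozen tissue section take up spatial DNA barcodes before droplet single-nucleus RNA sequencing. The tissue was a 20 μm coronal section from 1 male C57BL/6J mouse, an inbred strain, aged 56 days, with no genetic change or treatment named. Each nucleus is known by a cell barcode, and its RNA was counted as UMIs, molecular tags that each stand for 1 captured molecule. The file held 32285 genes and 1661 barcodes, and positions in the section were not analysed here. A second library, from embryonic brain at embryonic day 14, brings the series to 10698 barcodes and served only for a side count. With 1 library per tissue there are no replicates, no test was made, and every interval covers counting error only.

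A barcode was taken as an astrocyte nucleus if it held at least 1000 UMIs, had under 5% of them from mitochondrial genes and at least 1.5% from Malat1, a nuclear RNA, had a UMI for at least 3 of the 6 genes Aqp4, Gja1, Slc4a4, Slc39a12, Gli2 and Fgfr3, and had at most 1 UMI of the myelin genes Mog and Mag together. Of 1264 barcodes that passed the first 3 limits, 126 met the rule (9.97%, exact 95% binomial interval 8.37 to 11.8%) and 1138 did not. The limit on Mog and Mag removed 13 others. Of the 126, 45 also had UMIs for at least 3 of 6 markers of another cell class, and 81 did not (6.41% of passing barcodes, 5.12 to 7.90%). The 45 met the marker rule of dentate granule cells 18 times, inhibitory neurons 10 times, microglia 10 times and endothelial cells 9 times, and 18 of them met more than 1 such rule. The granule rule includes Glis3, which 60 of the 81 also carried. Their median was 13151 UMIs, against 5723 in the 81 and 10034 in the 1138 other barcodes. No doublet caller was run, and whether these barcodes held more than 1 nucleus was not tested. Mitochondrial genes, which are made outside the nucleus, took a median of 0.404% of the UMIs in the 126, 0.351% in the 81 and 0.0798% in the 1138, and Malat1 took 4.96%, 5.32% and 5.50%. The part of these differences in the results was not tested. Results are therefore given for all 126 and for the 81, and low levels of other classes' markers in the 81 follow from how the 81 were chosen.

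Astrocytes are glial cells that clear glutamate and potassium released by neurons, pass ions and metabolites to each other through gap junctions, supply lipids, and wrap blood vessels with endfeet. In the hippocampus they lie among pyramidal and granule neurons, and their processes touch synapses. The genes of the rule belong to this work. Aqp4 forms the water channel of the endfoot, Gja1 encodes connexin 43, Slc4a4 a sodium bicarbonate cotransporter, Slc39a12 a zinc importer, Gli2 a transcription factor of Hedgehog signalling, and Fgfr3 a receptor for fibroblast growth factors.

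Sequence upstream of the genes for the main astrocyte connexins is shown because Gja1 was used to choose the nuclei and Gjb6 was not, and Gjb6 still had 112 UMIs in the 126 nuclei against 13 in the 1138 other barcodes. On GRCm38, Gja1 lies at chr10:56377330-56402513 and Gjb6 at chr14:57123303-57133611, and both windows lie before the first exon. The 250 bases before each RefSeq start site on GRCm38.p6 are given 5′ to 3′ on the gene's own strand, chr10:56377050-56377299 (plus) for Gja1 and chr14:57133612-57133861 (minus) for Gjb6. Capitals mark the match to a motif searched on both strands, here GTTGCC read on the other strand.
Gja1: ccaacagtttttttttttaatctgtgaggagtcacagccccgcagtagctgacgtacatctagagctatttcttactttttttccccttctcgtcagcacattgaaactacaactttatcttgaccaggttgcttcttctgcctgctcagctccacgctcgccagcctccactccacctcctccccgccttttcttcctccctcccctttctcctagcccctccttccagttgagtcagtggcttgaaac
Gjb6: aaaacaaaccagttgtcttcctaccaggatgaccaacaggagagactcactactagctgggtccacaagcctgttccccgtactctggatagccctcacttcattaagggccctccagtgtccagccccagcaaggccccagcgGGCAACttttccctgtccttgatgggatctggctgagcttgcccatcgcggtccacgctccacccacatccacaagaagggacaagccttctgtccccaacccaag
The motifs searched were TTGGCA, the core bound by NFI factors, GTTGCC, a core bound by RFX factors, ACAATG, a core bound by SOX factors, and TATAAA, the TATA box. None of the 4 was found in the Gja1 window, and the Gjb6 window held 1 GTTGCC. Over all 32851 RefSeq promoter windows, 12.3% held TTGGCA, 10.4% GTTGCC, 10.7% ACAATG and 12.4% TATAAA. Among the 580 windows of genes at least 4-fold higher in the 126 nuclei the shares were 15.9%, 12.4%, 8.10% and 10.7%, and among the 10348 windows of all genes compared they were 12.1%, 12.8%, 8.05% and 7.90%. A match is a run of letters and not a measured binding site.

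The nuclei were chosen by their UMIs of the 6 rule genes, and these values are given first, as a description. Among the 1264 passing barcodes, 562 had a UMI of none of the 6 genes, 512 of 1 gene, 51 of 2 and 23 of 3, while 29 had 4, 38 had 5 and 49 had all 6. Barcodes next to the limit of 3 genes, 51 with 2 and 23 with 3, were few among the 1264 but not beside the 126 nuclei. Of the 512 with 1 gene, 476 had Slc4a4, which neurons of this library also carried. Summed over the 126 nuclei, Gja1 had 837 UMIs, or 706 per 1000000 UMIs, against 10.7 per 1000000 in the other barcodes, and Aqp4 had 386 UMIs against 57. Per nucleus of the 81, Gja1 ranged from 0 to 30.5 UMIs per 10000 with a median of 9.71. The ratio of the 126 to the other barcodes was 127 for Fgfr3, 101 for Gli2, 92.8 for Slc39a12, 77.7 for Aqp4 and 65.8 for Gja1, but 3.94 for Slc4a4.

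The label was checked with 22 further astrocyte genes outside the rule, among them the glutamate transporters Slc1a2 and Slc1a3, Aldh1l1, Aldoc, Gjb6 and Sox9. Together these took a median of 2.45% of the UMIs of the 126 nuclei (lowest 0.112%, highest 4.68%) and 0.0487% in the other barcodes. In the 81 the range was 1.08 to 4.68% with a median of 2.80%, so each of these nuclei carried astrocyte RNA, and in the 45 the median was 1.37%. The 18 nuclei just inside the limit, with exactly 3 marker genes, had a median of 1.67%, and the 51 barcodes just outside it, with 2, had 0.0632%. A few barcodes outside stood high, since the largest share among those 51 was 7.54%. By class, barcodes meeting only the oligodendrocyte precursor rule had a median of 0.521%, those meeting only the oligodendrocyte rule 0.146% and those meeting only the pyramidal rule 0.0513%.

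**Figure D1:**
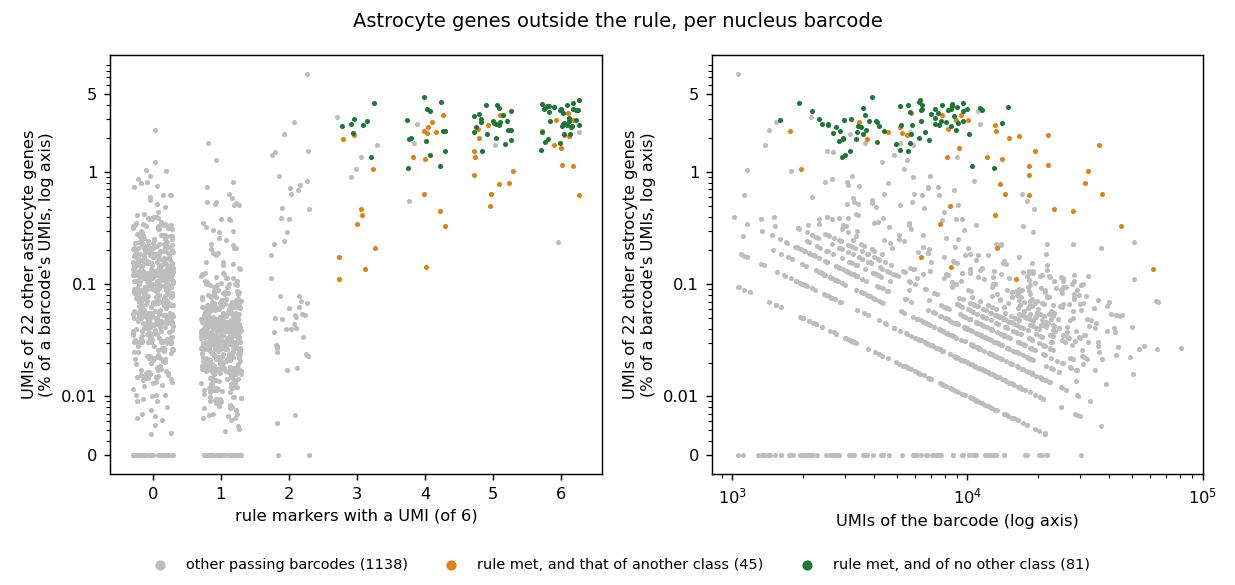
Each point is 1 of the 1264 passing barcodes of the adult library, with its number of rule genes, its total UMIs and the percent of its UMIs from the 22 astrocyte genes outside the rule; log axes are labelled, and a share of 0 is drawn at the bottom. The 126 astrocyte nuclei gather at a high share, with a median of 2.45%, and the 45 with another class's markers lie lower, at a median of 1.37%.

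Markers of other cells were measured as whole lists. The 6 endothelial genes summed to 1421 UMIs per 1000000 in the 126 nuclei, 2391 in the 45, 26.7 in the 81 and 291 in the other barcodes. Each of these genes, among them Flt1, a receptor of vascular growth factor, and Cldn5, a tight junction protein, was over 4-fold higher in the 126 than in the other barcodes, while all 6 were at least 4-fold lower in the 81. Here the direction turned with the choice of nuclei, and the part of these 45 barcodes in other results was not tested. Inhibitory neuron genes summed to 529, 859, 53.4 and 1500 per 1000000 in the same order, and oligodendrocyte precursor genes to 401, 625, 78.1 and 258. Dentate granule genes did not part the sets, at 621, 621, 623 and 571, and thalamic genes were at 589, 692, 440 and 1018. In the 81, Glis3 gave 272 of the 303 granule UMIs, and Plekhg1 185 of the 214 thalamic UMIs, in 58 nuclei. Both genes count towards those rules although most of the 81 nuclei had them. Pericyte and smooth muscle genes were at 113 per 1000000 in the 81 against 84.0 in the others, with Abcc9, Kcnj8 and Higd1b at 0 and most of the sum from Pdgfrb. That receptor of platelet-derived growth factor had UMIs in 26 of the 81 nuclei and was 13.5-fold higher there than in the other barcodes (counting interval 9.17 to 19.7). Of 6 ependymal genes, 5 had 0 UMIs in the 126.

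Genes were then compared across the whole table. Of 13797 genes with at least 50 UMIs over both groups, 788 (5.71%) were at least 4-fold higher in the 126 nuclei and 563 (4.08%) at least 4-fold lower, and the median ratio was 1.05. For the 81, 848 of 13591 (6.24%) were at least 4-fold higher and 1274 (9.37%) lower. With each barcode weighted alike in place of by its UMIs, the 126 had 582 higher and 1178 lower genes. The other barcodes are a mixture rich in neurons, which sets these ratios, and the genes come from the cells the rule chose, so the counts describe and do not test. Of 273 functional list genes that reached the minimum, 126 genes were at least 4-fold higher. Some lists also hold rule genes, whose ratios follow from the choice of nuclei. Among these are Gja1 (coupling), Aqp4 (endfoot), Slc39a12 (metal and redox), Gli2 (Hedgehog) and Fgfr3 (growth factors). List counts and medians include them. The lists follow by role.

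Glutamate handling held the best-known astrocyte genes. Slc1a2 (GLT-1), which takes up most synaptic glutamate, ranged from 0 to 210 UMIs per 10000 over the 81 nuclei with a median of 88.1, against a median of 0.867 in the other barcodes. It was 22.4-fold higher in the 126 (21.5 to 23.3) and 33.8-fold higher in the 81, and Slc1a3 (GLAST) was 40.5-fold and 62.6-fold higher. All but 1 of the 81 nuclei had Slc1a2. Of the 10 genes of the list, 8 were at least 4-fold higher, with a median ratio of 16.0. Slc7a11, the cystine and glutamate exchanger, was 46.9-fold higher and Slc7a10, a carrier of serine and small amino acids, 76.8-fold. Glul, glutamine synthetase, was 9.55-fold higher, and oligodendrocyte-rule barcodes held 522 UMIs per 1000000 of it, with the 81 at 1.55 times that level. The neuronal glutamine carrier Slc38a1 was at 0.923 and the glial carrier Slc38a3 at 30.1.

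Transport of the inhibitory transmitters GABA and glycine showed 5 of 10 genes at least 4-fold higher, with a median of 3.22. Slc6a11 (GAT-3), the glial GABA transporter, had a median of 3.86 UMIs per 10000 in the 81 (0 to 29.1) and 0 in the others, a 60.6-fold ratio (49.2 to 75). Maob, which degrades amines, was 28.7-fold higher in the 126. Gabrg1, a GABA-A receptor subunit, was 18.7-fold higher, while Gabbr2, a subunit of the GABA-B receptor, was at 0.426.

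Coupling genes were split by cell type. Gjb6 was 98.9-fold higher in the 126 (55.5 to 192) with a UMI in 65 of them, and Gja1 was listed above. The oligodendrocyte connexin Gjc3 was at 0.356 of the others' level, and Gjb1, another oligodendrocyte connexin, had 0 UMIs in the 126 against 126 in the other barcodes. Of 6 coupling genes with enough UMIs, 2 were at least 4-fold higher, Gjb6 and the rule gene Gja1, and 1 was lower.

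Ion transport was uneven. Kcnj10 (Kir4.1), the potassium channel linked to potassium buffering, was 13.6-fold higher in the 81, but precursor-rule barcodes held 189 UMIs per 1000000, nearly the level of the 81 (1.03 times). Kcnj16, its partner subunit, was higher in precursors, with the 81 at 0.457 of their level. Atp13a4, a P5-type transport ATPase, had the highest ratio of any list gene, 215-fold in the 126 (106 to 508), from 150 UMIs against 8. Slc8a1, the sodium calcium exchanger, went the other way at 0.169 in the 126 and 0.0676 in the 81. The list as a whole had 5 of 13 genes at least 4-fold higher, with a median of 2.69.

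The endfoot, where astrocytes meet vessels, had 6 of 12 genes at least 4-fold higher, the rule gene Aqp4 among them, and a median of 5.34. Mlc1, a membrane protein of endfoot junctions, was 41.4-fold higher in the 126. Dtna, a dystrophin-associated protein, was 4.0-fold higher with a median of 15.8 UMIs per 10000 in the 81, but Dmd itself was at 0.727. Itga6 and Utrn were 9.09-fold and 7.35-fold higher in the 126, and endothelial barcodes held far more of each, so that the 81 had 0.394 and 0.161 of the endothelial level. Hepacam, an adhesion protein that binds Mlc1, was 6.68-fold higher and was also abundant in oligodendrocytes.

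Lipid genes stood out for size. Apoe, the brain's main lipid carrier, was present in all 126 nuclei and ranged from 6.86 to 172 UMIs per 10000 in the 81 with a median of 51.1, a 38.2-fold ratio to the others. Clu, a second secreted carrier, had a median of 22 (0 to 91.6) and a ratio of 54.1 in the 81. Both proteins are apolipoproteins that astrocytes secrete. Acsbg1, a fatty acid activating enzyme, was 63.6-fold higher in the 126 and Fads2, a fatty acid desaturase, 15.2-fold. Cholesterol synthesis was less distinct, since Msmo1 was 6.87-fold higher but Sqle was at 2.24. Scd2, which makes monounsaturated fatty acids, was 4.40-fold higher in the 126 and reached 2039 UMIs per 1000000 in oligodendrocytes, with the 81 at 0.602 of that. In all, 12 of 22 lipid genes were at least 4-fold higher, 1 was lower, and the median was 4.76.

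Glycogen genes were few but marked. Phkg1, the catalytic subunit of phosphorylase kinase, was 35.5-fold higher in the 126, Ppp1r3c, which targets a phosphatase to glycogen, 50.3-fold, and Pygb, the brain form of glycogen phosphorylase, 4.24-fold. The list had 5 of 13 genes at least 4-fold higher. Slc2a1, the glucose transporter of vessels and glia, was at 3.95 in the 126 and 1.86 in the 81.

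Receptors of transmitters formed a list with 5 genes at least 4-fold higher and 2 lower of 15, and a median of 0.729. The metabotropic glutamate receptors differed from each other. Grm3 had a median of 7.84 UMIs per 10000 in the 81 (0 to 60.5) and was 7.15-fold higher than in the others (4.08-fold in the 126), though oligodendrocyte-rule barcodes held 1261 UMIs per 1000000 of it and the 81 held 1.04 times that. Grm5 had a median of 0 in the 81 and 12.0 in the others, a ratio of 0.0762 (0.0583 to 0.0979), but its ratio in the 126 was 0.325, short of the 4-fold limit. Ntsr2, a neurotensin receptor, was 38.1-fold higher in the 126, S1pr1, for sphingosine 1-phosphate, 28.1-fold, and Ednrb, the endothelin B receptor, 23.4-fold. The ionotropic subunits Gria1 and Grin2a were at 0.348 and 0.265 in the 126 and 0.280 and 0.0330 in the 81. Chrm3, a muscarinic receptor, was at 0.126 in the 126 from 91 UMIs, and had 0 UMIs in the 81, so its level there was at most 0.0101 of the others' if a count of 0 allows up to 3 over the group.

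Calcium release genes differed by subtype. Itpr2, the glial form of the inositol trisphosphate receptor, was 5.81-fold higher in the 126 and 8.40-fold in the 81, while Itpr1 was at 0.836 and 0.599. The ryanodine receptor Ryr3 was at 0.228 in the 126, from 164 UMIs in 24 nuclei, and at 0.0101 in the 81, from 3 UMIs (0.00209 to 0.0297). Ryr2 was at 0.369 and 0.0334. Plcd4, a phospholipase C, was 10.9-fold higher in the 126. Of 10 calcium genes, 3 were at least 4-fold higher and 1 lower in the 126.

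**Figure D2:**
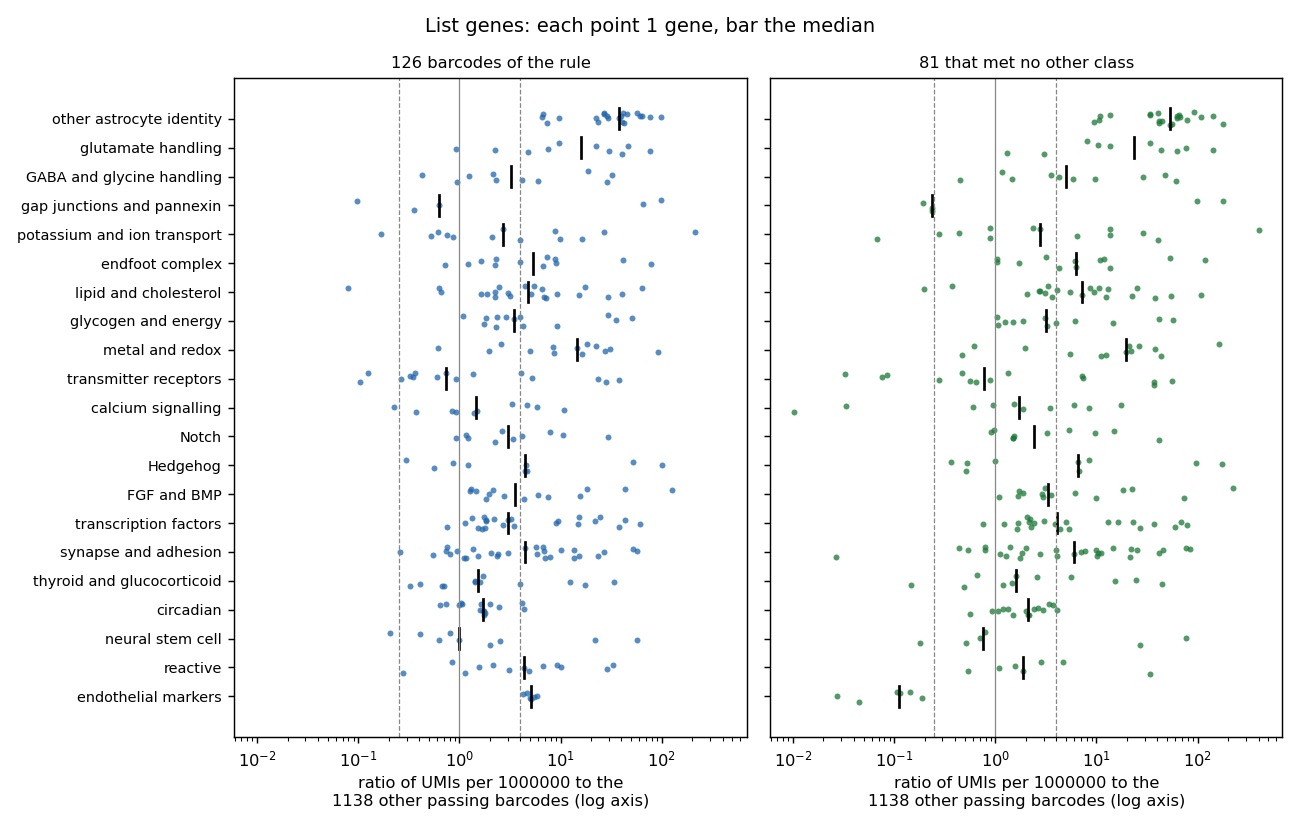
Each point is a gene of a functional list, placed by the ratio of its UMIs per 1000000 in astrocyte nuclei to that in the other passing barcodes, on a log axis; genes at 0 in a group or with fewer than 50 UMIs over both groups are left out, short bars mark medians of the genes drawn and dashed lines the ratios 0.25 and 4. The 21 identity genes lie to the right at a median of 38.1 in the 126, while receptor genes spread on both sides of 1 with a median of 0.729.

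Genes of developmental signalling were in part higher. In the Hedgehog list Gli3, a transcription factor that can act as repressor, had a median of 4.03 UMIs per 10000 in the 81 (0 to 16.1) and a ratio of 95.5, the Hedgehog receptor Ptch1 and its partner Smo were 8.42-fold and 6.56-fold higher, and Shh, the ligand, had 1 UMI in the 126. Gli1, a transcript that rises with pathway activity, had 10 UMIs in the 126 and 0 in the others. Of 9 Hedgehog genes with enough UMIs, 5 were at least 4-fold higher, the rule gene Gli2 among them. Of 10 Notch genes, 4 were, with Hes5, a Notch target, at 29.2 in the 126, Notch1 at 10.7 and Notch2 at 7.88. In the list of growth factor and bone morphogenetic protein signalling, 7 of 14 were at least 4-fold higher, led outside the rule by the receptor Bmpr1b at 42.9, with Id4 at 18.0 and Id3 at 15.4, proteins that block helix-loop-helix factors. Id1 was 5.99-fold higher in the 126 and 1.69-fold in the 81.

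Transcription factors were high in 9 of 23 cases, with a median of 2.99 in the 126. Sox9, needed to form astrocytes, was 61.5-fold higher (39.9 to 98.5), with UMIs in 69 of 126 nuclei. Prdm16 was 43.5-fold higher, Pax6 37.9-fold, Rfx4 21.8-fold and Npas3 9.41-fold. Rorb, a nuclear receptor also made by thalamic neurons, was 14.8-fold higher, and thalamic-rule barcodes held 496 UMIs per 1000000, so that the 81 stood 3.61 times above them. Nfia, Nfib and Nfix, factors that start glial development, were much less distinct at 3.45, 1.81 and 1.82. Zbtb20 was at 1.34 and was abundant in the neurons as well.

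Genes acting at synapses and the cell surface gave 15 of 29 at least 4-fold higher in the 126, with a median of 4.44. Gpc5, a heparan sulfate proteoglycan, ranged from 0 to 219 UMIs per 10000 in the 81 with a median of 71.1 and a ratio of 41.2, and precursor-rule barcodes held 3480 UMIs per 1000000 of it against 7852 in the 81. Thrombospondin 4 (Thbs4) was 57.0-fold higher but had a UMI in 37 of the 126 nuclei. Mertk and Megf10, receptors by which astrocytes engulf synapses, were 15.3-fold and 6.82-fold higher, with microglia holding 1573 UMIs per 1000000 of Mertk and the 81 at 0.382 of that. Nrg3, a neuregulin, had a median of 0 in the 81 against 32.0 in the others and a ratio of 0.0268, while its ratio in the 126 was 0.259, short of the 4-fold limit.

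Hormone and stress genes were mixed. Dio2, which makes active thyroid hormone, was 33.5-fold higher in the 126, Slco1c1, a thyroxine transporter, 12.4-fold with far more in endothelial barcodes, and Hsd11b1, which reactivates glucocorticoids, 17.3-fold. The glucocorticoid targets Sgk1 and Fkbp5 were at 0.411 and 0.322, and Sgk1 had 0 UMIs in the 81, at most 0.0567 of the others' level. Of 13 metal and redox genes, 10 were at least 4-fold higher with a median of 14.5, the rule gene Slc39a12 among them. Others were the metallothioneins Mt1 at 16.3 and Mt2 at 27.7, the peroxiredoxin Prdx6 at 14.5, and Cbs, which makes cystathionine, at 31.2. Clock genes were mostly near the others, with 2 of 15 at least 4-fold higher, Dbp at 4.35 and Nr1d1 at 4.15.

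Reactive genes, which rise in astrocytes after injury, depended on the choice of nuclei. In the 126, 7 of 13 were at least 4-fold higher with a median of 4.33, and in the 81, 2 of 11 were with a median of 1.35, where genes with 0 UMIs were taken at 3 counts. Vim, an intermediate filament, was at 9.18 and 4.62, with endothelial barcodes at 530 UMIs per 1000000, and Hspb1, Tm4sf1 and Srgn had 43, 63 and 36 UMIs in the 126 and 0 in the 81. Gfap, the filament used to stain astrocytes, was 34.1-fold higher in the 81 (26.1 to 44.6). Lcn2 and Cxcl10, strongly induced in reactive cells, had 0 UMIs in all 1264 passing barcodes, so their absence does not mark these nuclei. Of neural stem cell genes, 2 of 9 were at least 4-fold higher in either set, Hopx at 21.8 and Thbs4. Of 2 markers of dividing cells, Top2a had 0 UMIs in the 126, while Mki67 had UMIs in 9 of the 126 and 0 in the 81.

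Genes outside the lists with at least 100 UMIs in the 126 were ranked by their ratio. The highest were Eva1a at 71.0, Sdc4, a syndecan, at 52.3, Gldc, which cleaves glycine, at 48.4, the secretory pathway protein Fam20a at 48.0 and the lipid phosphatase Plpp3 at 44.2. The most abundant of the 25 named this way were Cst3, a protease inhibitor, and Wdr17. Cst3 had a median of 62.4 UMIs per 10000 in the 81 (0 to 206), with ratios of 25.8 in the 126 and 33.8 in the 81. Wdr17 had a median of 51.0 in the 81 (0 to 205), with ratios of 24.2 in the 126 and 38.2 in the 81. Rgs20, a regulator of G protein signalling, was 40.1-fold higher in the 126 and Aldh1a1, which makes retinoic acid, 42.0-fold. At the low end of the 126 stood myelin genes, with Opalin at 0.0216 from 1 UMI and Mog, on which the rule set a limit. In the 81 the lowest were neuronal genes, with Cntn4, a contactin, at 0.00924 from 2 UMIs, Galntl6 at 0.00981 and the ephrin receptor Epha6 at 0.0101, where the other barcodes had 6057, 19952 and 36029 UMIs.

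Against each cell class alone, the set was narrower. Of 750 genes with at least 100 UMIs in the 81, 69 (9.2%) were at least 4-fold above each of 8 other classes, 36 of them in a list. Outside the rule these included Gli3 at 44.4 times the next class, Bmpr1b at 31.2, Slc7a11 at 30.7, Fam20a at 30.5, Atp13a4 at 22.7, Ntsr2 at 21.3, Acsbg1 at 19.3 and Slc6a11 at 18.8. The next class was endothelial (24 barcodes) for Slc7a11 and Fam20a, at 12.9 UMIs per 1000000, the level that 1 UMI gives there. For Atp13a4, Ntsr2 and Slc6a11 it was precursors (19 barcodes), at 10.5, 21.0 and 31.4, where 1 UMI gives 10.5. The size of these 5 values is therefore poorly set. Slc1a2 was at 9.58 and Clu at 12.8, while Apoe was at 3.59, with 1694 UMIs per 1000000 in endothelial barcodes.

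**Figure D3:**
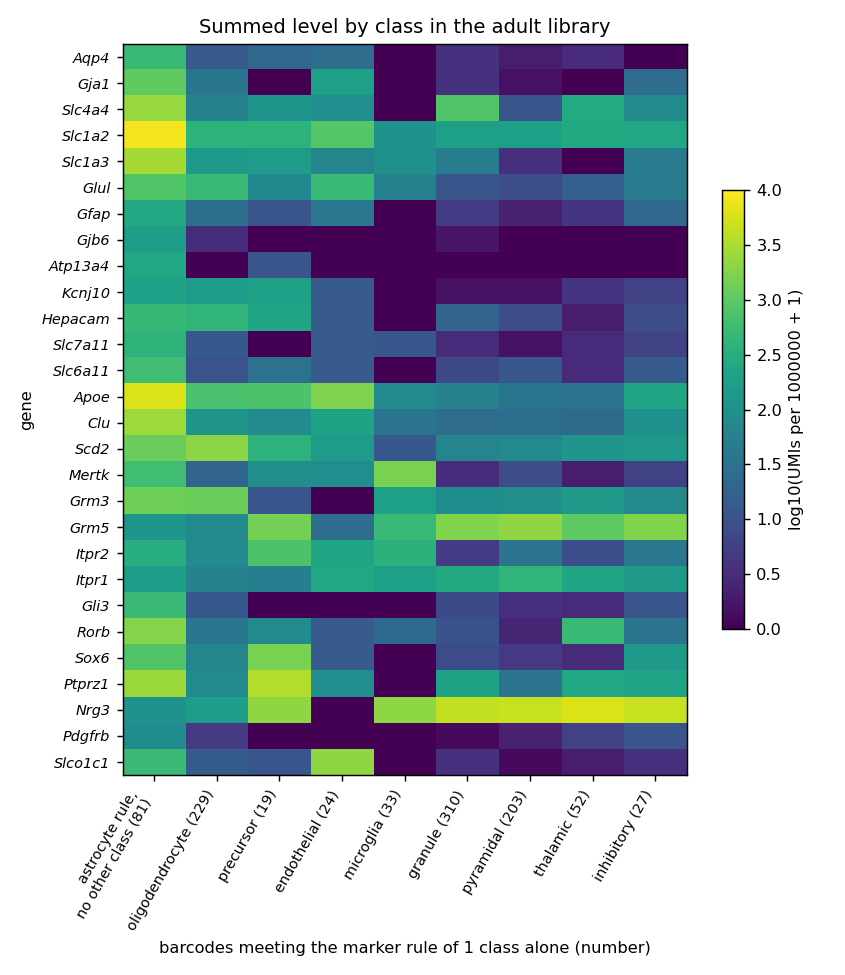
Rows are genes, columns are the 81 astrocyte nuclei and the barcodes of 8 other classes that meet only their own marker rule, and colour is log10 of UMIs per 1000000 plus 1. Gli3 and Slc6a11 are strong in the astrocyte column alone, whereas Mertk is stronger in microglia and Slco1c1 in endothelial barcodes.

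Shares of nuclei with a UMI were read beside granule neurons, which lack most astrocyte genes. Gja1 was present in 79 of the 81 nuclei (97.5%, median depth 5723 UMIs) and in 2.58% of 310 granule-rule barcodes (median 11364). After each barcode was thinned to 1000 UMIs, the shares were 67.9% and 0%, and for Plpp3 82.7% and 0.968%. The abundant genes were found more widely. Slc1a2 was at 92.6% of the 81 and 11.3% of granule barcodes after thinning, Apoe at 93.8% and 5.16%, and Wdr17 at 97.5% and 9.35%. Gpc5 differed between neuron types, with 1.94% of granule and 24.6% of pyramidal barcodes against 91.4% of the 81.

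Nuclei of this set were not alike. Regional identity was read from 8 genes, 4 known from telencephalic astrocytes (among them Lhx2, Emx2 and Mfge8) and 4 known from astrocytes of the diencephalon and further back (Agt, Itih3, Zic1, Zic4). Of the 81 nuclei, 41 had UMIs of the first group only, 11 of the second only, 23 of both and 6 of neither. Median depths were 5723, 4118 and 6597 UMIs for the first 3 sets. The section held thalamic neurons too, since 52 barcodes met only the thalamic rule. The 8 genes chose the sets and are no finding. Mfge8 mostly set the first group, with 129 UMIs in the 81 nuclei against 27 of Lhx2 and 24 of Emx2. It was also present in 12 of the 23 nuclei with Agt (52.2%, 30.6 to 73.2%), and in 42 of the 58 without (72.4%, 59.1 to 83.3%). Among 797 other genes with at least 60 UMIs over both sets, 57 (7.15%) were at least 4-fold higher in the 41 and 18 (2.26%) at least 4-fold lower, with genes at 0 in a set taken at 3 counts there.

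The genes with the lowest ratios are the extremes of a ranking against 11 nuclei. Kcnd2, a potassium channel of the A type, ranged from 18.8 to 82.4 UMIs per 10000 in the 11 nuclei with a median of 25.9, and from 0 to 11.4 in the 41. Its ratio was 0.0159 (0.00874 to 0.0270), from 15 UMIs in 6 of 41 nuclei against 185 in 11 of 11. Erbb4, a neuregulin receptor, had a median of 15.9 in the 11 (0 to 47.1) and at most 2.57 in the 41, a ratio of 0.00927 from 5 against 106 UMIs. Nuclei with Erbb4 were thus 10 of 11 and 4 of 41. Gria1, an AMPA receptor subunit, followed at 0.0375 (median 21.9 against 0), then Gsdme, a gasdermin, at 0.0541, and the channel Trpm3 at 0.129 (median 68.0 against 3.31). Mpp6, Fry and Mgat4c were at 0.138, 0.140 and 0.152. Slc6a11 was also lower in the 41, with a median of 2.73 UMIs per 10000 against 11.9, present in all 11 of the other set, and a ratio of 0.213 (0.152 to 0.299), and Ptch1 was at 0.201. Among neurons, thalamic-rule barcodes had 0 Erbb4 UMIs and 2851 per 1000000 of Kcnd2, and granule barcodes had 3649 per 1000000 of Kcnd2. Inhibitory and precursor barcodes held 7480 and 3249 UMIs per 1000000 of Erbb4. The marker lists of these classes summed to 53.4 and 78.1 in the 81, low values that follow from how the 81 were chosen. The part of RNA from other cells was not tested.

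Lipid carriers and glutamate uptake ran the other way. Clu had a median of 33.3 UMIs per 10000 in the 41 (3.52 to 91.6) against 3.46 in the 11 (0 to 8.87), an 8.31-fold ratio (5.29 to 13.9). Apoe had 71.7 against 19.1 and a ratio of 3.96, Slc1a2 had 104 (36.5 to 140) against 31.1 (0 to 70.4) and a ratio of 2.98, and Slc1a3 was at 2.62. Gja1 differed less, at 1.47 (1.05 to 2.13) with medians of 10.4 and 9.39. Aqp4 was at 1.64, with an interval that took in 1 (0.990 to 2.90). Gfap had 91 UMIs in 29 of the 41 nuclei and 0 in the 11, at least 5.96-fold higher if 3 counts are allowed. The summed share of the 22 identity genes was 3.25% and 2.63% at the median.

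The genes with the highest ratios to the 41 had 1 to 3 UMIs in the 11 nuclei, so their size is poorly set. Ctnna2, an alpha catenin, was at 40.7 (7.22 to 1615), the netrin receptor Dcc at 32.4 (5.74 to 1289), Rcan2 at 18.5 (3.24 to 738), Phactr1 at 15.9 (4.34 to 133) and Glis3 at 11.7 (3.93 to 57.1). Some of these were also regional in neurons. Granule barcodes held 609 UMIs per 1000000 of Glis3 and thalamic barcodes 0, and pyramidal barcodes held 2570 of Phactr1 against 10.0 in thalamic ones. Ctnna2 did not follow that, with 2634 in thalamic and 1107 in granule barcodes. Whether neuronal RNA adds to these ratios was not tested.

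A split by Erbb4, chosen after these values were seen, also placed the nuclei with mixed or no seeds, and is given as a description. Of the 81 nuclei, 20 had at least 2 Erbb4 UMIs, 4 had 1 and 57 had 0, with median depths of 5073, 6536 and 5723 UMIs. The 20 held 10 of the 11 nuclei with the second seed group alone and 8 of the 23 with both, while the 57 held 37 of the 41 with the first group alone. Kcnd2 had a UMI in 20 of 20 nuclei with a median of 25.4 UMIs per 10000, and in 13 of 57 with a median of 0. Slc6a11 was found in 20 of 20 at a median of 16.4 and in 36 of 57 at 2.74. Zic1 had 12 UMIs in 10 of the 20 and 0 in the 57, whereas Lhx2 had 0 UMIs in the 20 and 25 in the 57, and Emx2 1 and 21. Since Erbb4 was picked for parting sets that these seed genes defined, their parting along it is largely set by that choice and supports nothing. Mfge8 and Agt, secreted proteins, parted less, with Mfge8 in 9 of 20 and 43 of 57 and Agt in 12 of 20 and 10 of 57. Median Clu was 5.78 against 33.1 UMIs per 10000, Apoe 19.4 against 73.2 and Slc1a2 31.2 against 104, and Gfap had 1 UMI in the 20 and 107 in the 57. Since the groups hold most nuclei of the 2 seed sets, the values of Kcnd2, Slc6a11 and these genes largely repeat that comparison and add no support.

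**Figure D4:**
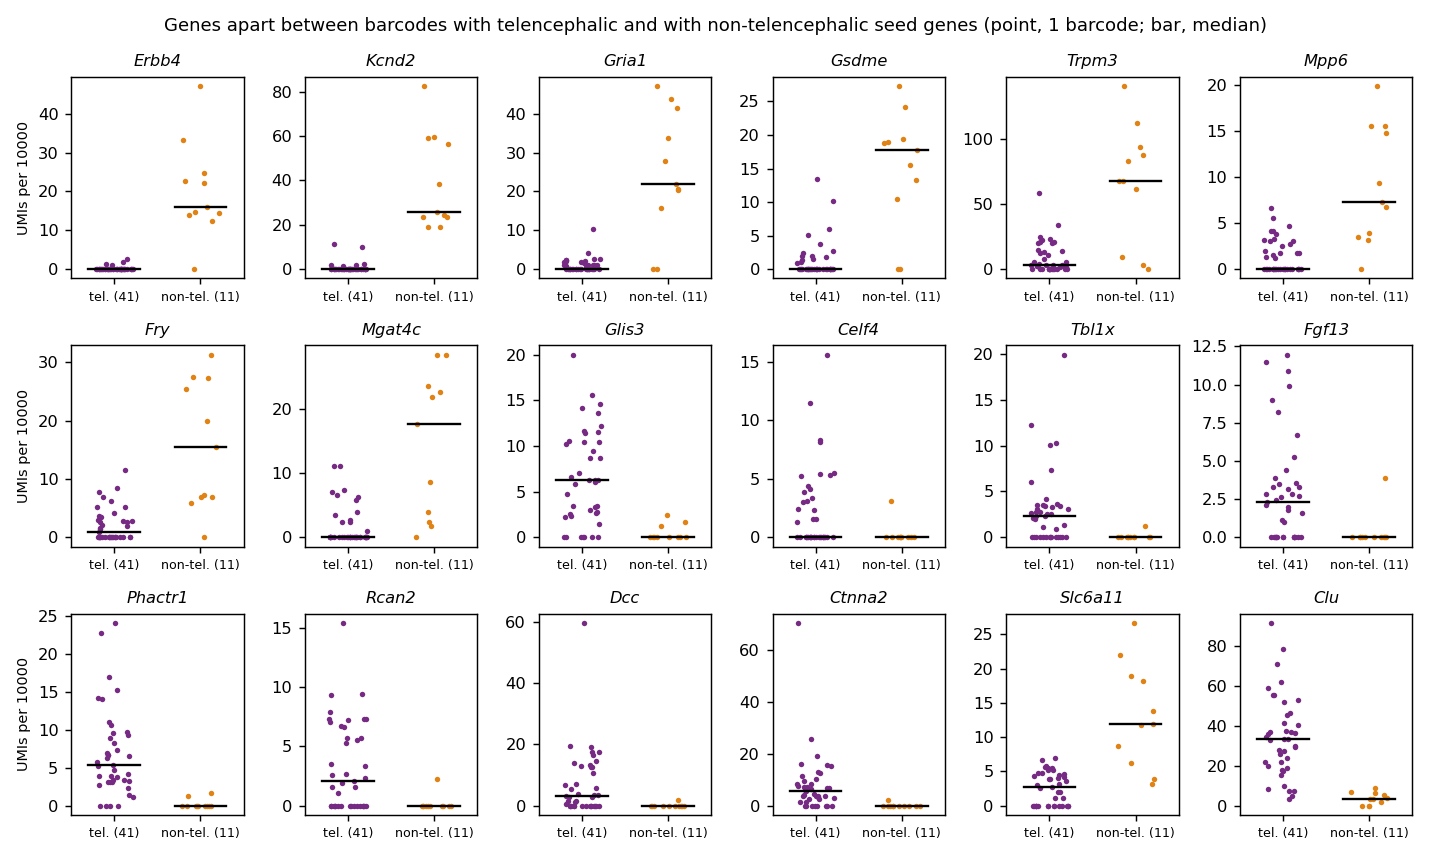
Points are nuclei without another class's markers, in the set of 41 with telencephalic seed genes alone and the set of 11 with the other seed genes alone; each panel is a gene, the vertical axes give UMIs per 10000 and bars mark medians. Kcnd2, an extreme of the ranking, is lower in the 41, at a median of 0 against 25.9, and Clu is higher in the 41, at a median of 33.3 against 3.46.

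The same comparison over all 126 nuclei, with 60 and 13 nuclei in the seed sets, gave 76 of 1931 genes (3.94%) at least 4-fold higher and 20 (1.04%) lower. The count of higher genes was 115 with transcription factor seeds alone and 32 with seeds read after thinning to 1000 UMIs. Erbb4 was at 0.0605, with 61.4% of its UMIs in the 60 from 1 nucleus, Gsdme at 0.111, Clu at 7.60, Apoe at 3.69 and Slc6a11 at 0.201. These genes had the direction seen in the 81, from nuclei that the larger sets share with the smaller. Kcnd2, Gria1, Trpm3 and Fry were no longer among the 8 lowest ratios, which ended at 0.171 for Mpp6. Ctnna2, Dcc, Rcan2, Phactr1 and Glis3 were no longer among the 8 highest, which ran from 12.3 for Arhgap31 to 26.0 for Cplx2. Mgat4c, Mpp6, Tbl1x and Fgf13 stayed among these extremes, as did Erbb4 and Gsdme.

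Spread between nuclei was set against the Poisson spread that counting alone gives at each nucleus's depth. In the 126, 568 of 2705 genes (21%) with at least 100 UMIs had a variance of at least 5 times that expectation, and in the 81, 77 of 750 (10.3%) did. The medians over genes were 2.21 and 1.98. In the 126 the highest was Dpp10 at 327, where 1 nucleus held 83.2% of the UMIs, followed by Kcnip4 at 246. Others near the top were Malat1 at 83.6, with UMIs in all 126 nuclei, the endothelial Flt1 at 80.6, and Lsamp, a cell adhesion gene, at 71.6 with UMIs in 124. Single nuclei still led in the 81, since 79.7% of the Lrrtm4 UMIs lay in 1, but genes spread over many nuclei followed, with Trpm3 at 38.9, Cst3 at 24.7, Apoe at 22, Kcnd2 at 19.1 and Erbb4 at 16.9. Gpc5 was at 15.2, Slc1a2 at 14.9 and Gja1, whose spread the rule partly sets, at 2.51.

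Gfap, the filament gene, was read in the same way, in a split also chosen after its values were seen. In the 81, 29 nuclei had at least 2 UMIs, 12 had 1 and 40 had 0, with median depths of 7298 in the 29 and 3764 in the 40, so depth moved with the split. The highest nucleus had 16 UMIs. Over all genes with at least 40 UMIs in both sets together, 17 of 2023 (0.84%) were at least 4-fold higher in the 29 than in the 40. A further 28 (1.38%) were at least 4-fold lower. Among 163 list genes, 0 were, and 4 were at least 4-fold lower, Erbb4 at 0.00968, Gabbr2 at 0.0749, Gria1 at 0.0754 and Ptch1 at 0.231. Erbb4, Gria1 and Ptch1 were also lower in the 41 nuclei with telencephalic seeds alone, and the nuclei of these splits overlap.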

How the data were processed

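The authors mapped reads to the mouse genome (mm10) with introns counted, and deposited raw UMI counts per gene and barcode as Cell Ranger wrote them, with version 6.1.2 (hippocampus) and 7.0.1 (embryo) per the file headers. The methods name CellBender for the embryo, whose file carries a Cell Ranger header. Counting introns favours long genes, so ratios were taken for the same gene between groups. Remarks on abundance across genes, and sums over marker lists, carry that effect. The adult file held 1661 barcodes, and the 126 nuclei had 1598 to 61786 UMIs each and 1185913 in all, against 13613898 in the 1138 others. No barcode of the 126 occurred in the embryonic library, and 1 barcode was shared between the libraries in all.

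UMIs were summed over the barcodes of a set and scaled per 1000000. Ratios carry exact conditional binomial intervals and shares exact Clopper-Pearson intervals at 95%, and a count of 0 was taken to allow 3 counts. A gene was called at a ratio of at least 4 or at most 0.25, given at least 50 UMIs over both groups. The minimum was 60 for regional sets and 40 for the Gfap split. Barcodes were thinned to 1000 UMIs without replacement where stated. The computations used Python 3.11.15 with NumPy 2.4.6, SciPy 1.17.1 and pandas 2.3.3, figures used matplotlib 3.10.9, and the ratio and spread functions were tested on simulated data.

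The nuclei, the gene lists and the seed genes were chosen with earlier results of these data known. Genes named are those of the lists, the 25 outside them with the highest ratio and at least 100 UMIs, the 10 with the lowest ratio, the 12 with the largest spread and the 8 at each end of the regional comparison. Predicted genes were counted and not named. Genes above every other class were chosen after their values were seen where no list holds them. Some genes of the lists are not reported here.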

Additional observations from a re-analysis of the deposited data

Results flagged for a closer look

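Signal of the astrocyte rule also appeared outside the passing adult barcodes. Among 142 adult barcodes with Malat1 under 1.5% of UMIs, 23 had a UMI for at least 3 of the 6 rule genes and at most 1 of Mog and Mag (16.2%, exact 95% binomial interval 10.6 to 23.3%), and 14 of these met no other class. The 23 had a median depth of 3545 UMIs, and mitochondrial genes took a median of 2.49% of them and Malat1 0.218%. In the 23, Apoe was at 8688 UMIs per 1000000 against 4658 in the 126 nuclei and Cst3 at 7721 against 5148, but Gpc5, a gene with very long introns, was at 575 against 4495 and Gli2 at 23.0 against 179.

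In the embryonic library, 345 of 7445 barcodes that passed the same limits met the rule (4.63%, 4.17 to 5.14%), with a median depth of 16179 UMIs. These had another makeup than the adult nuclei. Gli2 was present in 328 of the 345 and Gja1 in 273, but Aqp4 in 15 and Gfap in 5. Top2a, of dividing cells, was found in 262 of the 345 and in 0 of the 126, and Mki67, also of dividing cells, in 226 and 9. Nes, a filament of neural progenitors, was found in 197 and 6. Slc1a2 was at 85.6 UMIs per 1000000 against 5664. The embryo had 1 library of another age, tissue and depth, whose parts in these values cannot be told apart.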

How the results depend on the processing

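No paired analysis was possible because each tissue has 1 library. The number of astrocyte nuclei stayed between 99 and 173 under the other limits on markers, Mog and Mag, UMIs, mitochondrial share and Malat1, but was 81 without those that met another class and 61 after thinning to 1000 UMIs. Genes at least 4-fold higher numbered 582 to 1145 except at 2827 with no minimum beyond 1 UMI and 2170 with a 2-fold limit. Those at least 4-fold lower numbered 1178 with each barcode weighted alike, 1274 without another class, 214 with 2 of 6 markers and 1977 with a 2-fold limit. Genes higher in the telencephalic set numbered 115 with transcription factor seeds alone and 32 with seeds read after thinning. Genes of wide spread numbered 77 without another class and 6 after thinning, where fewer genes reached the minimum. Ratios turned in direction for endothelial and mural genes without another class (Abcb1a 0.107, Cldn5 0.0447, Flt1 0.115, Mecom 0.189, Ptprb 0.143, Rgs5 0.0843, Slco1a4 0.0272) and with barcodes weighted alike (Cldn5 0.976, Flt1 0.818, Mecom 0.798, Slco1a4 0.999), for Frzb with 2 of 6 markers (1.27), and for Arhgap31 between regions when seeds were read after thinning (0.349). Against oligodendrocyte-rule barcodes alone, neuronal genes turned up (Chrm3 2.70, Cntn4 3.04, Epha6 4.48, Galntl6 1.40, Ryr3 4.49) and shared glial genes down (Grm3 0.591, Hepacam 0.683, Itih3 0.736, Kcnj10 0.786, Megf10 0.567, Scd2 0.487). Many other ratios of single genes moved beyond their counting interval, 225 without another class (103 did not move), 220 with barcodes weighted alike (142 did not), 246 against oligodendrocyte-rule barcodes (31 did not), 164 with 2 of 6 markers (201 did not), 42 with 4 of 6 (324 did not) and 2 with at least 2000 UMIs (364 did not). The cause was not tested. The single library, the 45 nuclei with another class's markers, genes of few UMIs and the set of 11 nuclei limit the precision.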
